A study of Mus musculus with 9 samples.

Results

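Surfactant, the lipid and protein film that lowers surface tension in the alveoli, is made by alveolar type 2 cells and stored in lamellar bodies, which are lysosome-related organelles. The 10 genes described here encode its proteins and part of the machinery that makes and loads these organelles: Sftpa1, Sftpb, Sftpc, Sftpd, Abca3, Lamp3, Napsa, Slc34a2, Lpcat1 and Dram1. They were chosen by gene symbol from the 23224 genes of the deposited count table, and all 10 passed the filter on low counts that left 15663 genes for testing. The rule itself used no measured value, but the genes were picked with earlier results of these data known.

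RNA was sequenced from FACS-sorted cancer cells of mouse lung adenocarcinoma in 3 genotypes, with 9 libraries in all. All mice carried floxed Trp53 (Trp53 fl/fl) and a Cre-activated red fluorescent reporter (Rosa26 LSL-TdTom), on a mixed B6;129S2 background. They differed at Smarca4, which encodes the BRG1 ATPase of SWI/SNF chromatin remodelling complexes: KP was Smarca4 +/+ (n = 4), KPS-HET was Smarca4 fl/+ (n = 2) and KPS was Smarca4 fl/fl (n = 3). Cre came from an adenovirus given through the trachea, driven by the CCSP promoter (background: a promoter of airway club cells), and tumours were taken when the mice were moribund. Neither the age of the mice nor the sort gates were stated in the labels. No label ties a library to a mouse of its own, so the p-values measure the spread between these libraries, which may be partly technical. The replicate numbers follow the order of accession and pair nothing across genotypes.

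The libraries held 12607500 to 37114400 estimated counts. Smarca4 itself was at 110 to 137 CPM in KP (CPM being counts scaled to a common library total, after TMM), 76.4 to 97.1 in KPS-HET and 39.8 to 55.5 in KPS, and the 3 genotypes did not overlap. Its log2 fold change in KPS against KP was -1.40 ± 0.15 (SE; edgeR quasi-likelihood test, adjusted p = 0.0021). The epithelial marker Epcam lay between 622 and 878 CPM in all 9 libraries, and Nkx2-1, the lineage factor of lung epithelium, was detected in each. Other epithelial markers were not all so even. Cdh1 was at 576 to 846 CPM in KP, 649 and 817 in KPS-HET and 1317 to 1755 in KPS. Krt8 had means of 2108, 1830 and 2690 CPM in KP, KPS-HET and KPS, and Krt18 of 1876, 1599 and 1639. Markers of macrophages, which take up and break down surfactant, were not equal between genotypes. Summed over 18 macrophage and monocyte markers without Lyz2, which alveolar type 2 cells also express, they came to 263 to 387 CPM in KP. The sums were 1679 and 301 in KPS-HET replicates 1 and 2, and 6096, 831 and 1782 in KPS replicates 1 to 3. A few genes made up most of them, with Chi3l3 at 4072 and Ccl6 at 1063 CPM in KPS replicate 1. In KPS replicate 2 Chi3l3, Cd14 and Ccl6 were at 366, 286 and 99.6 CPM. Csf1r was at 6.60 CPM there, beside 1.72 to 5.04 in KP.

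As background, SP-B and SP-C are small hydrophobic proteins that spread the lipid film, whereas SP-A and SP-D are collectins, soluble lectins of innate defence. ABCA3 pumps phospholipid into the lamellar body, LPCAT1 makes the saturated phosphatidylcholine that it carries, and LAMP3 sits in the membrane of the organelle. Napsin A cuts the SP-B precursor, SLC34A2 takes up the phosphate released from surfactant lipid, and DRAM1 is a lysosomal membrane protein known as a p53 target that modulates autophagy.

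The 5′ flanks of 4 of these genes are shown because they include both genes that fell in KPS, Sftpb and Dram1, together with Sftpa1 and Slc34a2, which were lower in KPS replicate 1 than in any other library. Each runs from 250 bases before to 50 after the annotated gene start, 5′ to 3′ on the gene's own strand, from RefSeq on GRCm38.p6, which is another build than the mm9 used for counting. Capitals mark matches to letters bound by lung factors, searched on both strands: TTGCNNAA for C/EBP proteins, CAAGTG for NKX2-1 and TGTTTAC for forkhead proteins.
Sftpa1 (chr14:41131538-41131837, plus strand): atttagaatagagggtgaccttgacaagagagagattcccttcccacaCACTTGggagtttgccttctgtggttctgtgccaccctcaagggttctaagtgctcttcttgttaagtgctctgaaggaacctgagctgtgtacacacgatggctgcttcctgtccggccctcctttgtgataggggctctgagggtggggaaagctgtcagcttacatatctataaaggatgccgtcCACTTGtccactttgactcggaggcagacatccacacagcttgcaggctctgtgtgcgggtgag
Sftpb (chr6:72304360-72304659, plus strand): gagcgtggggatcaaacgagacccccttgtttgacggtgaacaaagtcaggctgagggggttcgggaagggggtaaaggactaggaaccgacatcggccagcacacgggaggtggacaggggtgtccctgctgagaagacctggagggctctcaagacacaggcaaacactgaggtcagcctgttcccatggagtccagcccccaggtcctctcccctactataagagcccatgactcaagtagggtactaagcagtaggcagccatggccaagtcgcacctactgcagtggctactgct
Slc34a2 (chr5:53049103-53049402, plus strand): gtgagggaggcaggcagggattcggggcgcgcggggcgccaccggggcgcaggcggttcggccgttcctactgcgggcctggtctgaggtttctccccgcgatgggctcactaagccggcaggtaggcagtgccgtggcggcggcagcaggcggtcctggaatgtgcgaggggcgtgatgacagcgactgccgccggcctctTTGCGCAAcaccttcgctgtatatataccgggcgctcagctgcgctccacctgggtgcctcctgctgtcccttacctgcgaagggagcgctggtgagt
Dram1 (chr10:88357026-88357325, minus strand): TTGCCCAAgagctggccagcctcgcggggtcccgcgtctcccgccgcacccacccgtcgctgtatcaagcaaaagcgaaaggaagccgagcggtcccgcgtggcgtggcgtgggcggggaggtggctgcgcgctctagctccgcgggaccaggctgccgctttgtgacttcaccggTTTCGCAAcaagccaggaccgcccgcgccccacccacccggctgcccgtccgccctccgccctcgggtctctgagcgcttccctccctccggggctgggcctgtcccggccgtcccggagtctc

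RefSeq windows were found for 7 of the 10 genes, with Sftpc, Sftpd and Napsa named only. C/EBP letters occurred in 2 of these 7 windows, in Slc34a2 and Dram1, beside 10.8% of 32851 promoters of the same length. NKX2-1 letters occurred in 1 of 7, with both matches in Sftpa1 on the reverse strand and printed as CACTTG, beside 13.6% of promoters. Forkhead letters occurred in 1 of 7, Lamp3, beside 3.65% of promoters. The Sftpb window held none of the 3 sets of letters. These matches describe the sequence and are not shown to be bound in these cells.

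The 10 genes together took a large share of each library, and a smaller one in KPS. They made up 7.20%, 10.3%, 6.90% and 6.52% of all counts in KP replicates 1 to 4, 7.78% and 5.22% in KPS-HET, and 1.85%, 5.20% and 4.11% in KPS. All 3 KPS libraries lay below the 4 KP libraries, and KPS-HET replicate 2 lay just above the highest KPS library. Sftpc carried most of it and ranked first among all genes in each KP and KPS-HET library, whereas in KPS replicates 1 to 3 it ranked 4, 2 and 2. Whether fewer cells of the type 2 state or less RNA per cell gave a lower level cannot be told apart in bulk libraries.

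The level of each gene in KP spanned a wide range when scaled by transcript length. On the scale of mean CPM per kilobase of the longest protein-coding transcript, Sftpc stood at 63136, followed by Sftpa1 at 4826, Sftpb at 3044, Sftpd at 2311, Slc34a2 at 696, Napsa at 464, Dram1 at 338, Lpcat1 at 132, Lamp3 at 112 and Abca3 at 97.9. The KP ranges of neighbours in this order overlapped for Sftpa1 and Sftpb, for Sftpb and Sftpd, for Napsa and Dram1, for Lpcat1 and Lamp3 and for Lamp3 and Abca3, so their order is not resolved by these 4 libraries. Sftpc lay above Sftpa1, Sftpd above Slc34a2, Slc34a2 above Napsa and Dram1 above Lpcat1 in ranges that did not overlap. The values rest on the longest transcript: that of Sftpa1 would be higher on its shortest, of 851 in place of 2854 bases, and so would that of Abca3, of 5202 in place of 6476 bases. The same holds for Sftpb, with 1131 in place of 1490 bases, and for Lpcat1, with 2141 in place of 3675. The order and overlaps above hold for the longest transcripts only.

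**Figure D1:**
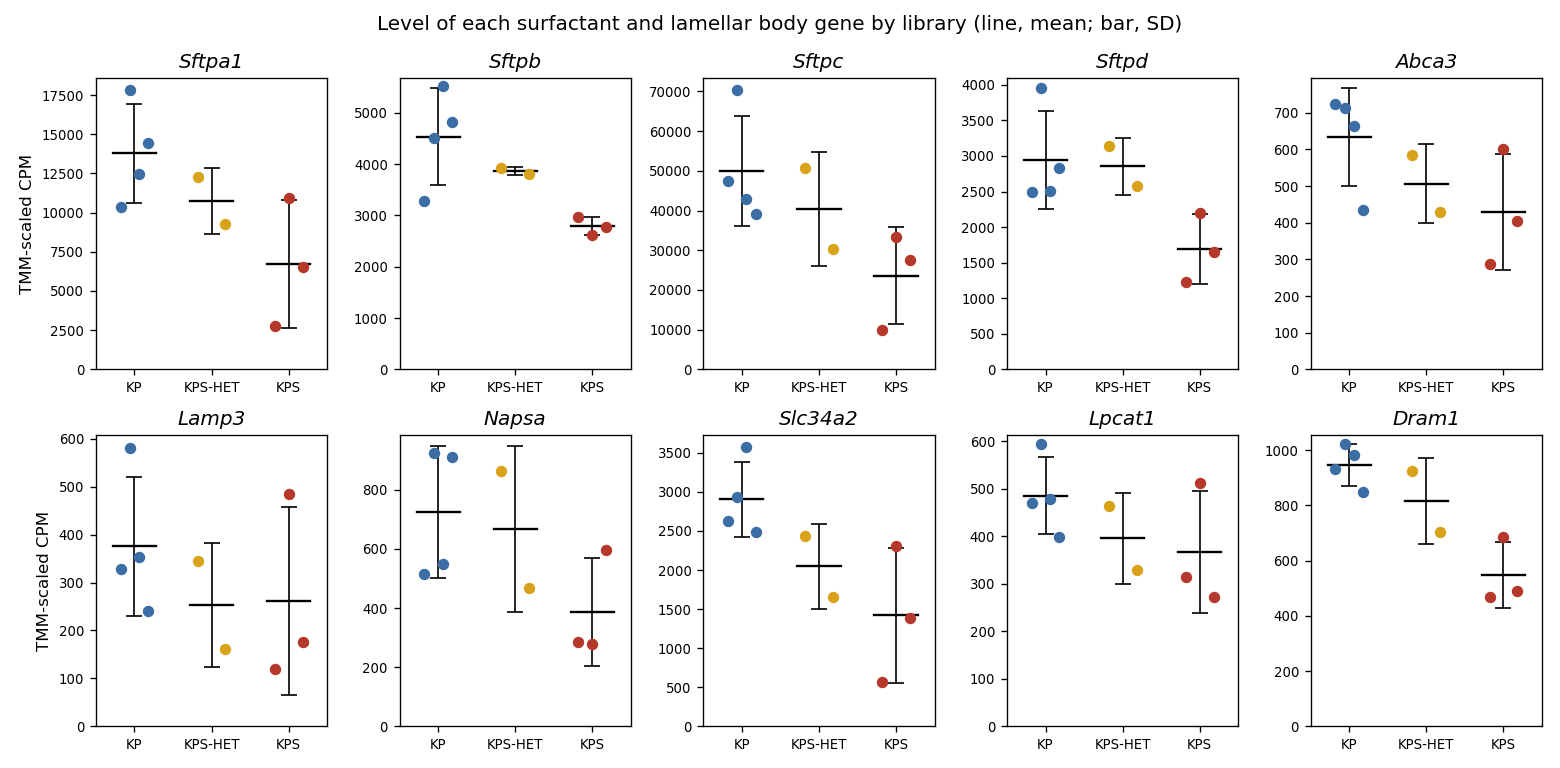
Level of each of the 10 genes in each library, in CPM on a linear axis from 0 with a panel per gene; points are single libraries grouped by genotype, the thick line is the group mean and the bar its SD. Sftpb, Sftpc, Sftpd, Slc34a2 and Dram1 show 3 KPS points below every KP point. In Sftpa1, Abca3, Lamp3, Napsa and Lpcat1, 1 KPS point lies among those of KP.

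Against KP, 2 of the 10 genes fell in KPS, Sftpb and Dram1, where 3.28% of the 15663 genes tested were called lower and 7.24% were called in either direction. None rose, where 3.96% of genes were called higher. The other 8 had log2 fold changes below 0 that did not pass the test. The median over the 10 was -0.80, beside 0.01 over all genes tested, and 10 of 10 were negative, beside 49.1% of all genes. The KPS and KP libraries did not overlap for 5 of the 10, Sftpb, Sftpc, Sftpd, Slc34a2 and Dram1, where 21.8% of all genes did not overlap. Other tools called more of the 10. Limma-voom called Sftpd besides Sftpb and Dram1, where it called 7.2% of all genes. DESeq2 called 7, all but Abca3, Lamp3 and Lpcat1, but it also called more over the whole table, 14.6% of all genes. A fit of only the KPS and KP libraries called Dram1 alone, where 7.03% of genes were called. Adjusted p-values in what follows are those of edgeR's quasi-likelihood test with Benjamini-Hochberg adjustment over all genes tested, and errors of log2 fold changes are standard errors.

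Of the hydrophobic surfactant proteins, Sftpb gave the tightest values. It stood at 3279, 4508, 5526 and 4830 CPM in KP, at 3916 and 3815 CPM in KPS-HET, and at 2978, 2622 and 2775 CPM in KPS. The 3 KPS libraries were close together and each lay below the lowest KP library and below both KPS-HET libraries. The mean fell from 4536 ± 939 (SD, n = 4) in KP to 2792 ± 178 CPM (n = 3) in KPS, a log2 fold change of -0.70 ± 0.17 with an adjusted p of 0.037. This call was lost when any single library other than KP replicate 1 was left out, with adjusted p between 0.052 and 0.101 and log2 fold changes between -0.78 and -0.61.

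Sftpc, the textbook marker of type 2 cells, was at 47545, 70261, 42957 and 39250.4 CPM in KP, at 50627 and 30218 in KPS-HET, and at 9912, 33300.4 and 27505 in KPS. KPS replicate 1 was far below the rest, while KPS replicates 2 and 3 lay below the lowest KP library and on either side of KPS-HET replicate 2. The log2 fold change against KP was -1.08 ± 0.39 with an adjusted p of 0.126, so the difference did not pass the test, and its 95% interval ran from -1.96 to -0.21. Lgi3, the neighbouring gene beside Sftpc, fell by 1.41 ± 0.36 on the log2 scale (adjusted p = 0.0467). No source used here states whether the counting used strand, and reads shared between neighbours were not examined.

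The collectins had lower means in KPS without passing the test. Sftpa1 was at 10374, 17807, 12463 and 14454 CPM in KP, at 12248 and 9275 in KPS-HET, and at 2754, 10919 and 6544 in KPS. Sftpd was at 2497, 3953, 2502 and 2833 CPM in KP, at 3135 and 2571 in KPS-HET, and at 1226, 2200.1 and 1643 in KPS. KPS replicate 1 was the lowest of the 9 libraries for both genes, the KPS range of Sftpd stayed below KP, and KPS replicate 2 of Sftpa1 lay within the KP range. The log2 fold change was -1.03 ± 0.39 for Sftpa1 (adjusted p = 0.142) and -0.80 ± 0.23 for Sftpd (adjusted p = 0.063). Without KPS replicate 2 both passed, Sftpa1 at -1.59 with an adjusted p of 0.044 and Sftpd at -1.06 with 0.040. Sftpa1 and Sftpd lie near each other on chromosome 14, with the collectin gene Mbl1 between them.

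Of the genes that load lipid, neither passed the test. Abca3 was at 723, 713, 664 and 435 CPM in KP, at 584 and 430.1 in KPS-HET, and at 287, 599.9 and 405 in KPS. Lpcat1 was at 471, 594, 479 and 399 CPM in KP, at 464 and 328 in KPS-HET, and at 314, 512 and 272 in KPS. In both genes KPS replicate 2 lay inside the KP range and the other KPS libraries lay below it. The log2 fold change of Abca3 was -0.56 ± 0.26 (adjusted p = 0.223; 95% interval from -1.14 to 0.02). That of Lpcat1 was -0.41 ± 0.23 (adjusted p = 0.320; 95% interval from -0.93 to 0.11), the smallest in size of the 10.

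Both lysosomal membrane genes differed in how much their libraries spread. Dram1 was at 933, 1024, 983 and 849 CPM in KP, at 926 and 706 in KPS-HET, and at 468, 687 and 490.3 in KPS. All 3 KPS libraries lay below KP and below KPS-HET. The mean fell from 947 ± 75.2 (SD, n = 4) to 549 ± 120.4 CPM (n = 3), a log2 fold change of -0.79 ± 0.17 with an adjusted p of 0.0226. The call was lost without KP replicate 1 (adjusted p = 0.0502), without KPS replicate 1 (0.053) and without KPS replicate 3 (0.071), with the log2 fold change between -0.82 and -0.72 in these 3 fits.

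Lamp3 was at 328, 581, 354 and 239.7 CPM in KP, at 345 and 162 in KPS-HET, and at 120.4, 485 and 177 in KPS. The highest KPS library exceeded 3 of the 4 KP libraries while the other KPS libraries lay below all 4. The log2 fold change was -0.53 ± 0.49 (adjusted p = 0.576), and its 95% interval from -1.64 to 0.58 was the widest of the 10. Without KPS replicate 2 the estimate was -1.36, still short of the threshold.

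The protease Napsa and the phosphate transporter Slc34a2 had larger mean differences that did not pass. Napsa was at 514, 923, 548 and 909 CPM in KP, at 864 and 468 in KPS-HET, and at 284, 277 and 596 in KPS, where KPS replicate 3 lay among the KP libraries. Slc34a2 was at 2629.9, 2936, 3572 and 2487 CPM in KP, at 2434 and 1661 in KPS-HET, and at 572, 2301 and 1392 in KPS. For Slc34a2 all KPS-HET and all KPS libraries lay below the 4 KP libraries. The log2 fold change was -0.91 ± 0.35 for Napsa (adjusted p = 0.150) and -1.03 ± 0.39 for Slc34a2 (adjusted p = 0.139). Without KPS replicate 2 Slc34a2 passed, at -1.59 with an adjusted p of 0.040.

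**Figure D2:**
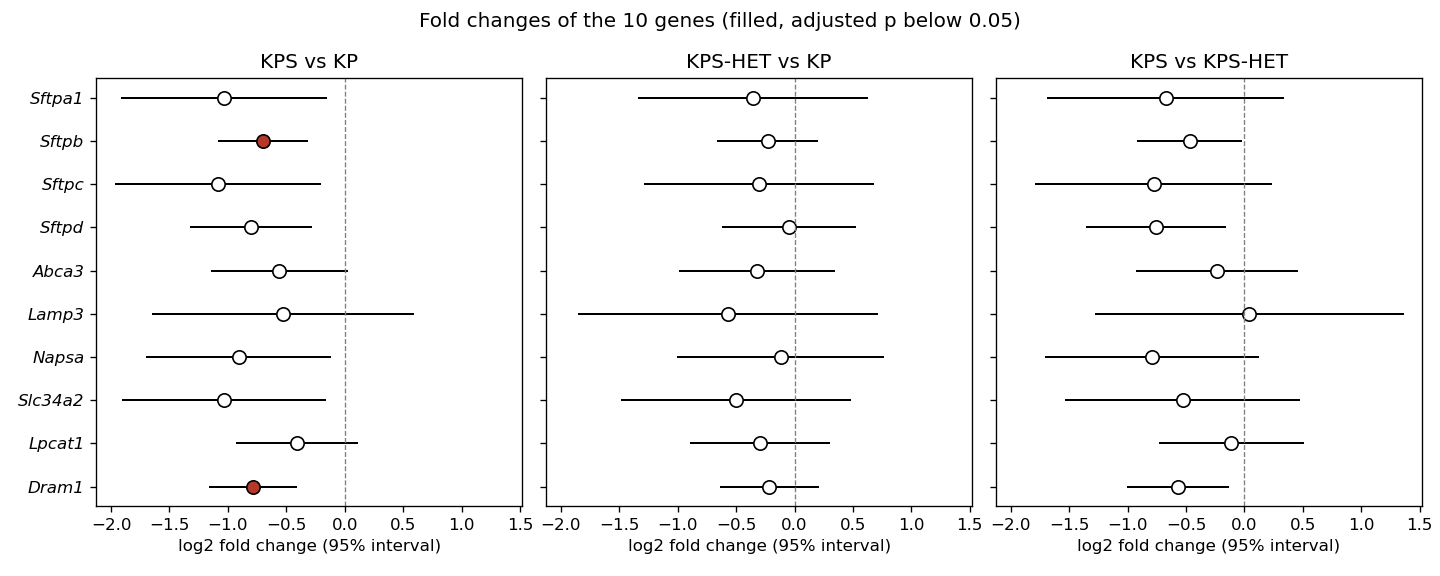
Log2 fold changes of the 10 genes with 95% intervals, for KPS against KP, KPS-HET against KP and KPS against KPS-HET; filled points passed an adjusted p of 0.05. In KPS against KP the estimates run from -1.08 for Sftpc to -0.41 for Lpcat1, and only Sftpb and Dram1 are filled.

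The 10 genes did not move as a block among the KPS libraries. KPS replicate 1 was the lowest of the 9 libraries for 7 genes, KPS replicate 2 for 2, Sftpb and Napsa, and KPS replicate 3 for 1, Lpcat1. In KPS replicate 1, Sftpa1, Sftpc and Slc34a2 stood at 19.7% to 20.0% of the KP mean, while Sftpb stood at 65.6%. The count of Sftpc per count of Sftpb was 3.33 there, beside 7.77 to 15.6 in KP and 12.7 and 9.91 in KPS replicates 2 and 3. The count of Slc34a2 per count of Abca3 was 1.99 in KPS replicate 1 and between 3.44 and 5.71 in the other 8 libraries. The median log2 fold change of the 10 genes, -0.80 with all libraries, was -0.69 without KPS replicate 1, -1.03 without KPS replicate 2 and -0.78 without KPS replicate 3. The number of the 10 genes called was 0, 4 and 0 in these fits, where 5.19%, 4.49% and 3.3% of all genes were called.

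**Figure D3:**
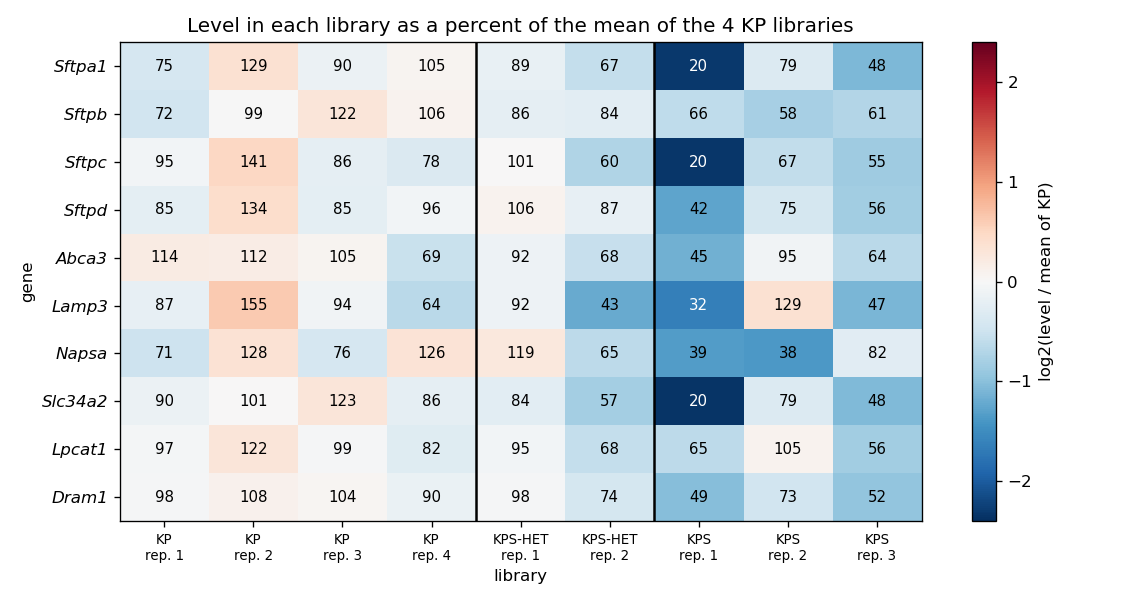
Level of each of the 10 genes (rows) in each of the 9 libraries (columns) as a percent of the gene's KP mean; the number in a cell is the percent, the colour its log2, and the lines part the genotypes. KPS replicate 1 runs from 19.7% to 65.6% and is below 100% for all 10 genes.

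The same library had the highest macrophage marker sum. The list held 19 tested markers, of which 16 were positive and 3 rose in KPS against KP, Cd14, Marco and Chi3l3, with a median log2 fold change of 3.13, and none of the 19 was at 0 throughout a genotype. The defining leukocyte gene Ptprc was at 65.7, 3.79 and 12.1 CPM in KPS replicates 1 to 3. It was at 16.6 and 3.47 in KPS-HET and at 1.15 to 3.25 in KP, and did not pass in KPS against KP (adjusted p = 0.0501). Without KPS replicate 1 the log2 fold change of Marco went from 4.52 to 1.83 (adjusted p = 0.157) and that of Chi3l3 from 3.81 to 2.46 (adjusted p = 0.152). Marco was also lost without each KP replicate, with adjusted p from 0.076 to 0.100, and Chi3l3 without each KP replicate or KPS replicate 3, with adjusted p from 0.064 to 0.107. A macrophage level was then added as a term in the fit. It was the mean log2 CPM of the 19 markers, so unlike the sum above it included Lyz2, which type 2 cells also express. With this term none of the 10 genes was called, where 2.2% of all genes were, and their median log2 fold change was -0.54. Sftpb was then at -0.76 (adjusted p = 0.165) and Dram1 at -0.68 (0.174), beside -0.70 and -0.79 without the term, while Sftpc went from -1.08 to -0.65 and Lamp3 from -0.53 to -0.02. The part of the macrophage signal in these differences was not tested.

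Other cell types were measured in the same way. The 12 endothelial markers summed to 37.6 to 56.5 CPM in KP to 60.9 and 50.3 in KPS-HET and to 82.7, 58.2 and 171.7 in KPS, and 2 of 12 rose, Ramp2 and Vwf, none being at 0 throughout a genotype. Without KPS replicate 3 both calls were lost, Ramp2 at 3.20 (adjusted p = 0.057) and Vwf at 1.49 (0.099), and Vwf was also lost without KP replicate 1 (0.070) or 2 (0.059). The 10 fibroblast markers summed to 8.07 to 10.8 CPM in KP to 13.0 and 2.03 in KPS-HET and to 21.2, 8.64 and 69.8 in KPS, with Lum at 0 in KPS and Dpt at 0 in KPS-HET. Of these 1 rose, Col1a1, whose log2 fold change went from 2.64 to 1.45 (adjusted p = 0.274) without KPS replicate 3, and whose call was lost without any other library but KPS replicate 1 (adjusted p from 0.057 to 0.122). Of 8 tested neutrophil markers none was called, and the 9 measured summed to 17.3 to 44.5 CPM in KP, 42.4 and 48.6 in KPS-HET and 29.5 to 74.2 in KPS, with Camp, which was not tested, at 0 in KPS and KPS-HET. Of 6 tested lymphocyte markers Cd79b fell, a call lost without any KPS library or KP replicate 1, 2 or 4 (adjusted p from 0.050 to 0.072). The 14 listed lymphocyte markers summed to 12.4 to 17.3 CPM in KP, 33.0 and 18.01 in KPS-HET and 11.5 to 86.3 in KPS. Cd3e, Nkg7 and Ms4a1 were at 0 in KP, and Cd3e, Cd3g, Nkg7, Gzma and Ms4a1 were at 0 in KPS-HET. The part of these cell types in the results was not tested.

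Markers of the other lung epithelial types did not share one direction. Of 12 alveolar type 1 markers 2 rose, Ahnak and Cldn18, while 9 were positive and 3 negative, with a median of 0.23. Their sums were 4237 to 6906 CPM in KP, 6003 and 4776 in KPS-HET and 5289 to 9326 in KPS. Ager went the other way, from a mean of 1887 CPM in KP to 1024 in KPS. Rtkn2 had a log2 fold change of -1.80 that did not pass (adjusted p = 0.076). Of 12 club cell markers 4 rose, Reg3g, Hp, Chad and Aldh1a1, and 1 fell, Gsta3. Of the 12, 8 were negative, with a median of -1.06. Their sums were 4520.5 to 7414 CPM in KP, 10239.9 and 6379.7 in KPS-HET and 5320.1 to 6265 in KPS. Within these sums Hp was at 578 to 1185 CPM in KP and 2104 to 3574 in KPS. Scgb1a1, which was not called, was at 2841 to 4359 CPM in KP, 5496 and 3981 in KPS-HET and 1294 to 2526 in KPS. None of 11 ciliated cell markers was called, and all 11 were negative with a median of -0.54 and sums of 154 to 541 CPM in KP, 429 and 399 in KPS-HET and 149 to 189 in KPS. None of these 3 lists had a marker at 0 throughout a genotype. Ahnak was lost without KPS replicate 3 (adjusted p = 0.062), and Cldn18 without any library but KPS replicate 3 (adjusted p from 0.062 to 0.117). Chad was lost without KP replicate 1 or 4 or KPS replicate 3 (adjusted p from 0.055 to 0.094), its log2 fold change going from 3.71 to 2.69 without KPS replicate 3. Aldh1a1 was lost without KP replicate 1 or 3 or KPS replicate 2 or 3 (adjusted p from 0.054 to 0.094). Reg3g kept its call in each such fit but went from 5.50 to 4.87 without KPS replicate 2. Of the markers called in these 8 lists, limma-voom did not call Marco, Chi3l3, Vwf, Col1a1, Cldn18 and Chad, and with the macrophage term only Cd14 and Reg3g stayed below 0.05.

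**Figure D4:**
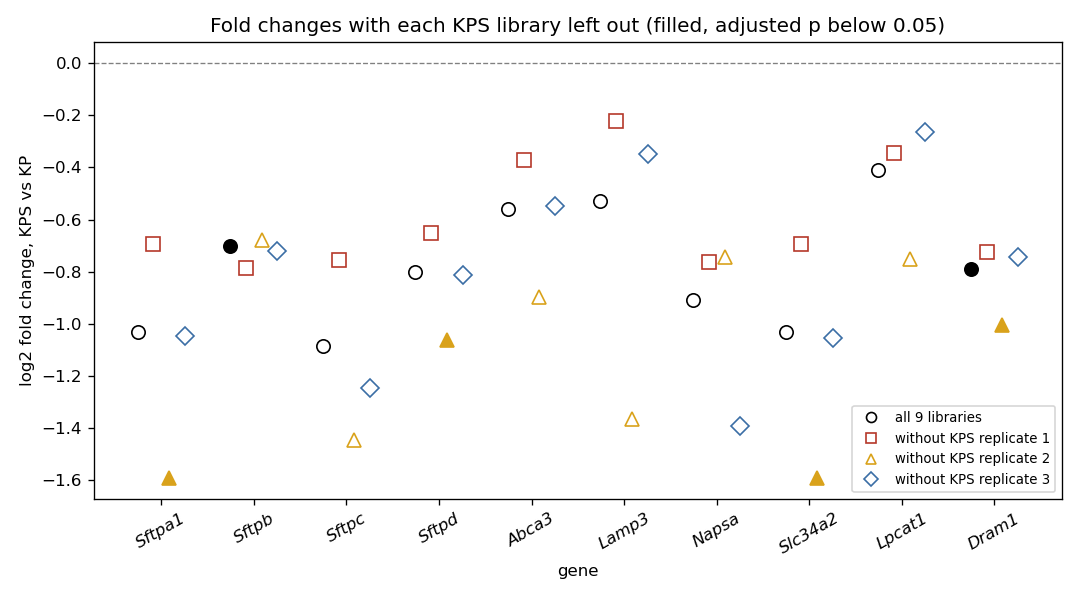
Log2 fold change of each of the 10 genes in KPS against KP with all libraries and with each KPS library left out in turn, with filled symbols past an adjusted p of 0.05. Without KPS replicate 2 the values of Sftpa1 and Slc34a2 reach -1.59, and the value of Sftpb stays between -0.78 and -0.68.

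In KPS-HET against KP, edgeR called none of the 10 genes, where 0% of the 15663 genes tested were called. At an unadjusted p below 0.05 the counts were 0 of the 10 and 627 of all genes, and over all genes limma-voom called 0 and DESeq2 called 2. The 10 log2 fold changes were all below 0, beside 50.9% of all genes, with a median of -0.30 beside -0.01 over all genes, and ran from -0.57 for Lamp3 to -0.05 for Sftpd. Only Slc34a2 did not overlap between these genotypes, beside 13.4% of all genes, and its 95% interval ran from -1.48 to 0.47. With 2 KPS-HET libraries the intervals were wide. The widest, that of Lamp3, ran from -1.84 to 0.71, and that of Sftpb, among the narrowest, from -0.66 to 0.20.

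In KPS against KPS-HET none of the 10 was called either, where 0.932% of genes were called and 0.409% were called lower; DESeq2 called 991 genes over the whole table. Sftpb, Sftpd and Dram1 had unadjusted p below 0.05, and only these 3 did not overlap, beside 36.4% of all genes. The log2 fold change was -0.47 ± 0.20 for Sftpb (adjusted p = 0.274), -0.76 ± 0.27 for Sftpd (0.198) and -0.57 ± 0.19 for Dram1 (0.183). The median of the 10 was -0.55 beside 0.01 over all genes, and Lamp3 alone was above 0, at 0.04 ± 0.58. This comparison shares its KPS libraries with the first and its KPS-HET libraries with the second, so the 3 sets of values are not independent.

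Genes around the surfactant system were taken from lists and compared in KPS against KP. Of all genes tested, 7.24% were called, 3.96% higher and 3.28% lower. A count near these shares in a list below does not show that its step moved. Of 15 other genes typical of alveolar type 2 cells, 3 fell and none rose, and all 15 were negative with a median of -0.95. S100g, a calcium-binding protein, fell by 1.25 ± 0.21 on the log2 scale, from a mean of 137 to 57.7 CPM (adjusted p = 0.0103), and kept its call in each fit that left out a library. Hc, complement component C5, fell by 2.26 ± 0.48 (adjusted p = 0.0256), a call lost without KP replicate 1 or KPS replicate 1 or 2 (adjusted p from 0.056 to 0.070). The call of Lgi3 given above was lost without any single library other than KP replicate 4 and KPS replicate 2 (adjusted p from 0.052 to 0.116). Cxcl15, the lung chemokine lungkine, had a mean of 1931 CPM in KP and 1002 in KPS without passing (adjusted p = 0.282).

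Of 13 transcription factors of alveolar type 2 cells, 3 fell and 1 rose, with a median of -0.09. Nkx2-1, which drives surfactant protein genes, was at 231 to 246 CPM in KP, at 269.8 and 199.7 in KPS-HET and at 119 to 179 in KPS. Every KPS library lay below every KP and KPS-HET library, and the log2 fold change was -0.68 ± 0.16 (adjusted p = 0.0309). Cebpa, another activator of type 2 maturation, fell by 0.65 ± 0.14 (adjusted p = 0.0276), and Id2, a repressor of basic helix-loop-helix factors, fell by 1.41 ± 0.36 (0.0475). Id2 was at 373, 370, 929 and 381 CPM in KP replicates 1 to 4, and without KP replicate 3 its log2 fold change was -0.98. Stat3, a cytokine-activated factor, rose by 0.54 ± 0.13 (0.0326).

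These calls lay close to the threshold when a library was left out. Nkx2-1 was lost without each KP replicate or KPS replicate 2 or 3 (adjusted p from 0.051 to 0.081), and Cebpa without KP replicate 1 or KPS replicate 1 or 3 (0.061 to 0.079). Id2 was lost without any library but KP replicate 3 (0.054 to 0.118), and Stat3 without any but KP replicate 2 (0.050 to 0.109). In these fits the log2 fold changes of these 4 genes stayed within 1.5 times of the values above.

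Of 15 genes of surfactant protein processing and secretion, 2 rose and 1 fell, with a median of 0.25. Ctsh, the cysteine protease cathepsin H that helps to cut the SP-B precursor, rose by 0.64 ± 0.15 on the log2 scale, from a mean of 2606 to 4070.0 CPM (adjusted p = 0.0301). Nedd4l, a ubiquitin ligase of the NEDD4 family, rose by 0.55 ± 0.12 (0.0246). Gpr116, the adhesion receptor through which type 2 cells limit surfactant pool size, fell by 0.52 ± 0.13 (0.0366). Ctsh rose in the comparison in which the mRNA of its substrate Sftpb fell. Ctsh was lost without any library but KP replicate 3 and KPS-HET replicate 2 (adjusted p from 0.051 to 0.106). Nedd4l was lost without KP replicate 1, 2 or 4 or KPS replicate 1 or 3 (0.065 to 0.088), and Gpr116 without each KP replicate or KPS replicate 2 or 3 (0.051 to 0.102).

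Of 22 genes of lamellar body biogenesis, such as the subunits mutated in Hermansky-Pudlak syndrome, 1 rose and none fell, with a median of 0.02. Rab32, a small GTPase of lysosome-related organelles, rose by 1.89 ± 0.42 (adjusted p = 0.0288) from a mean of 3.66 to 13.6 CPM. Without KPS replicate 1, which had the highest macrophage sum, its log2 fold change was 1.297 (adjusted p = 0.111), and it was also lost without KP replicate 1, 2 or 3 or KPS replicate 3 (0.061 to 0.081). Lyst, a regulator of lysosome size, had a log2 fold change of -0.76 ± 0.21 that did not pass (0.062).

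Of 34 genes of phospholipid and fatty acid synthesis, 5 rose and 1 fell, with 25 positive and a median of 0.26, beside the lower levels of Sftpb and Dram1. Elovl5, an elongase of polyunsaturated fatty acids, rose by 1.01 ± 0.16 on the log2 scale, from a mean of 218 to 437 CPM (adjusted p = 0.0082). Lpgat1, a lysophospholipid acyltransferase, rose by 0.94 ± 0.18 (0.0146). Scap, the escort of the SREBP factors, rose by 0.62 ± 0.12 (0.0190), and the phosphatidate phosphatases Lpin2 and Lpin1 rose by 0.85 ± 0.20 (0.0340) and 1.19 ± 0.29 (0.0375). Fabp5, a fatty acid binding protein, fell by 1.16 ± 0.22 (0.0171). Elovl5 and Fabp5 kept their calls whichever library was left out. Lpgat1 was lost without KPS replicate 3 (0.052) and Scap without KP replicate 1 or KPS replicate 2 or 3 (0.053 to 0.067). Lpin2 was lost without any library but KP replicate 4 and KPS replicate 2 (0.050 to 0.109), and Lpin1 without any but KP replicate 3 (0.050 to 0.144).

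Of 32 listed relatives of the 10 genes by family, 22 could be tested, 2 rose and none fell. Abca1, the cholesterol exporter of the same family as Abca3, rose by 1.32 ± 0.22 on the log2 scale, from a mean of 23.3 to 58.2 CPM (adjusted p = 0.0092), and kept its call whichever library was left out. Abca2, a lysosomal lipid transporter, rose by 0.72 ± 0.14 (0.0183), a call lost without KP replicate 1 or KPS replicate 1 or 2 (0.054 to 0.063). With the macrophage term in the fit, S100g, Nkx2-1 and Gpr116 kept their calls among the genes named from these 6 lists, and the others had adjusted p from 0.054 for Scap to 0.368 for Rab32. Under that term the log2 fold change was 0.98 for Elovl5, 1.05 for Lpgat1, 0.75 for Scap, 0.68 for Stat3, -0.67 for Cebpa and 1.17 for Lpin1, close to or larger in size than without it. It was smaller for Rab32, at 1.12 in place of 1.89, for Lpin2, at 0.51 in place of 0.85, and for Lgi3, at -0.98 in place of -1.41. Nedd4l, at 0.35 in place of 0.55, and Abca1, at 0.96 in place of 1.32, were also smaller under the term. The fit of only the KPS and KP libraries also lost Lpin1, Lpin2, Stat3 and Id2, the table without a filter lost Id2 and Lgi3, and limma-voom lost Rab32. None of these 6 lists had a call in KPS-HET against KP, a comparison with no call in any gene.

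**Figure D5:**
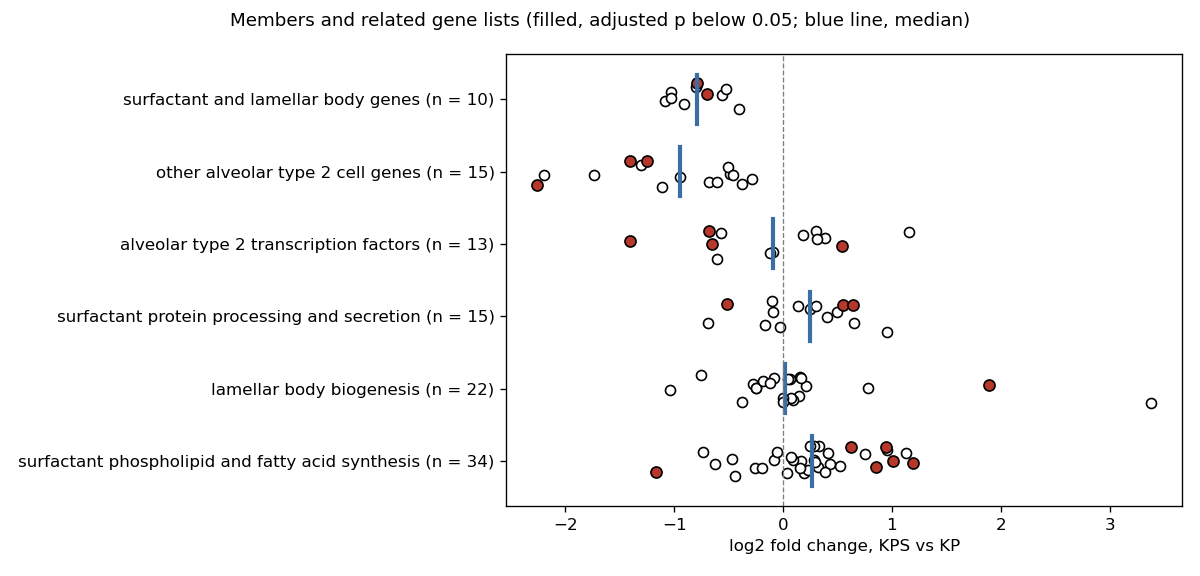
Log2 fold changes of KPS against KP for the 10 genes and 5 related lists, a point per tested gene, with the blue line at the median and filled points past an adjusted p of 0.05. The medians are -0.80 for the surfactant and lamellar body genes, -0.95 for other type 2 genes, and 0.26 for lipid synthesis.

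The genes whose log2 CPM was most like each surfactant gene over the 9 libraries were listed by Pearson's r among 11210 genes with a mean of at least 5 CPM. For Sftpc these were Rnase4 (r = 0.99), Cxcl15 (0.98), Grhpr (0.96), Klk14 (0.96) and Slc24a4 (0.95). For Abca3 they were led by Pycrl (0.98) and Acss1 (0.97). For Sftpb the likeness was lower, led by Tapbpl at 0.95. The points share their libraries, scaling and genotypes, so these values describe likeness across 9 libraries only.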

How the data were processed

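RNA of sorted tumour cells was amplified and sequenced by the submitters with a low-input polyA kit (Clontech SMARTseq), per the labels' protocols. The authors deposited estimated counts per gene, which need not be whole; RSEM 1.3.1, Bowtie 1.2.3 and the build mm9 are named in the submitters' processing notes. No source used here states the gene annotation, the filters or whether strand was used. Reads carry no molecular identifiers, so counting intervals cover counting error only. The 95% Wilson interval of a library's share of counts in the 10 genes had a half-width of at most 0.0145 percentage points.

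Counts were rounded, a change of at most 0.5, and genes were filtered with filterByExpr (minimum count 10, total 15), which left 15663 of 23224. Libraries were scaled by TMM and tested with edgeR 4.0.16 (quasi-likelihood, robust, 2-sided, 1 coefficient per genotype over 9 libraries) in R 4.3.3, with Benjamini-Hochberg adjustment over all genes tested and a threshold of 0.05. A standard error is the log2 fold change divided by the square root of F. The code was tested on simulated data. Alternatives were DESeq2 1.42.0, limma-voom (limma 3.58.1), DESeq2 size factors, scaling without the 10 genes, no filter, only the genotypes compared, the macrophage level as a term, and each library left out. The macrophage level was the mean log2 CPM of its listed markers, Lyz2 included. The 10 genes, 14 other lists and tests were chosen with earlier results of these data known. Of each other list the genes called are named, with a few near the threshold or at high level chosen after their values were seen. Transcript lengths came from GENCODE M21, and promoters from RefSeq. Part of the genotype shared by all mice and 1 marker are not reported here.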

Additional observations from a re-analysis of the deposited data

How the results depend on the processing

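No paired analysis was possible because the labels carry no replicate numbers and those used here only name libraries in accession order. In KPS against KP, DESeq2 called 2280 genes and 7 of the 10 described here, all but Abca3, Lamp3 and Lpcat1. The fit of only the 2 genotypes called 1 of the 10, and the macrophage term gave 345 genes and 0 of the 10. Leaving out single libraries gave 505 to 956 genes and 0 to 4 of the 10. The call of Sftpb was lost in most of these fits, so it is close to the threshold. In KPS-HET against KP, DESeq2 called 2 genes. In KPS against KPS-HET, DESeq2 called 991 genes, the fit of only the 2 genotypes 15, and fits without a library 1 to 150. All 10 genes stayed below 0 in KPS against KP under every alternative run. In KPS-HET against KP, the macrophage term turned Sftpa1 to 0.026, Sftpc to 0.031 and Sftpd to 0.10 on the log2 scale. Over fits without a library Sftpc ran from -0.72 to 0.017, Sftpd from -0.18 to 0.13 and Napsa from -0.62 to 0.25. In KPS against KPS-HET, Lamp3 was -0.15 with limma-voom and ran from -0.79 to 0.64 without a library, and Lpcat1 ran from -0.46 to 0.11. Outside the 10, the macrophage term turned Gpnmb to -0.10 and Cd2 to -0.28 in KPS against KP. Where a fit leaves 1 KPS-HET library, that library is assumed to vary like the other genotypes. The causes were not tested. The lowest estimated count of any of the 10 genes in a library was 2145.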
